A study of Mus musculus with 8 samples.

Results

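Levels of 10 genes of the Wnt signalling pathway were followed in whole mouse liver, namely the ligands and ligand enhancer Wnt2, Wnt9b and Rspo3, the receptors Fzd4, Fzd8 and Lgr5, the feedback genes Axin2, Rnf43 and Znrf3, and the secreted inhibitor Dkk4. They were taken by gene symbol and were 10 of 16794 genes listed in at least 1 of 8 libraries. They were chosen with the comparison between genotypes already known, so their differences are given as a description, with no test. The study compared 4 wild-type (WT) mice with 4 mice in which E4bp4, the gene Nfil3 of a basic leucine zipper repressor, was deleted in the liver (E4bp4-LKO). Every mouse received a diet that causes non-alcoholic steatohepatitis (NASH) for 20 weeks from 2 months of age, so no liver on standard chow stands beside them. No source used here gives the Cre line, and none gives strain, sex or whether the mice were littermates. The libraries came from whole liver, and in such tissue fewer cells of a type and less RNA per cell cannot be told apart.

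Wnt proteins are secreted lipid-modified ligands that bind Frizzled receptors and the co-receptors Lrp5 and Lrp6, which stops the destruction complex (Axin, Apc and the kinase Gsk3) from degrading beta-catenin. Beta-catenin then enters the nucleus and, with TCF/LEF factors, switches on target genes, several of which restrain the pathway in turn. In the liver, endothelial cells around the central vein are a known source of Wnt2, Wnt9b and the R-spondin Rspo3. The hepatocytes next to these endothelial cells respond with a pericentral programme that includes Axin2, Lgr5, Rnf43 and glutamine synthetase (Glul). Stellate cells are a source of Rspo3 as well.

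The promoters of 5 of the 10 genes, Wnt2, Wnt9b, Fzd4, Axin2 and Rnf43, were found in the RefSeq table for build GRCm38.p6, in 6 windows of 250 bases before to 50 bases after an annotated start. Each window was searched on both strands for the TCF/LEF words CTTTGAT and CTTTGAA and for the D-box words TTATGTAA and TTACGTAA, the kind of site that E4BP4 binds. None of the 6 windows held any of the 4 words. Of all 32851 promoters in the table, 3.73% held CTTTGAT, 5.14% CTTTGAA, 0.938% TTATGTAA and 0.119% TTACGTAA. The 120 bases before the start are printed for Axin2 (chr11:108920229-108920348, forward strand), Wnt2 (chr6:18030446-18030565, reverse strand) and Fzd4 (chr7:89404246-89404365, forward strand), a target, a ligand and a receptor whose levels did not overlap between the genotypes. They stand beside Sp5 (chr2:70474803-70474922, forward strand), a target gene that rose, and Wnt5b (chr6:119467212-119467331, reverse strand), the Wnt gene with the highest level, which hold a match. Capitals mark a searched word.
Axin2: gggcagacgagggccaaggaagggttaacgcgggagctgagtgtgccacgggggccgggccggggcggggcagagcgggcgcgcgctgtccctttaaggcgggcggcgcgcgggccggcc
Wnt2: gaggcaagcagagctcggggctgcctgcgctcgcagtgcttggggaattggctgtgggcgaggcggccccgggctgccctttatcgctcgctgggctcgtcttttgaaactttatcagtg
Fzd4: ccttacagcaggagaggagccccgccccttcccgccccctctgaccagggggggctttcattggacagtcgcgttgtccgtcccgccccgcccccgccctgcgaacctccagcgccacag
Sp5: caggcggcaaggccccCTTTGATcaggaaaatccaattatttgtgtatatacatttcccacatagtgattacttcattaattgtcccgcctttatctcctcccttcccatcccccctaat
Wnt5b: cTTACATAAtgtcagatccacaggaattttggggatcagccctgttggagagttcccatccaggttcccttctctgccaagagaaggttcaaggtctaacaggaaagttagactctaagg
Sp5 held CTTTGAT with its first base 104 bases before the start. The table gives 3 starts of Wnt5b: the window shown held TTATGTAA, read on the opposite strand 119 bases before the start, and a window at another start held CTTTGAT 71 bases before it. The windows of the chosen genes were rich in G and C, with 70.0% for Axin2, 65.7% for Wnt2, 72.7% for Fzd4 and 71.7% for Wnt9b against a median of 52.7% over all promoters, while the windows of Rnf43 held 46.7% and 44.3%. A match is a word in a short window and no record of binding.

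The deleted gene was measured first. Nfil3 stood at 11.4, 8.79, 12.1 and 16.5 CPM in WT mice 164, 165, 166 and 167 and at 3.33, 6.22, 6.14 and 3.35 CPM in E4bp4-LKO mice 143, 144, 145 and 179. CPM is the rounded expected count in a library brought to 1000000 counts, scaled by the trimmed mean of M values (TMM), and livers are named in this order throughout. The groups did not overlap, and Nfil3 was 2.54-fold lower in E4bp4-LKO (log2 fold change -1.35, SE 0.25, edgeR quasi-likelihood test with Benjamini-Hochberg adjustment over 13242 genes, adjusted p = 0.0121, and 0.0286 in an exact two-sided permutation test over the 70 arrangements of the livers). Whole liver holds cells other than hepatocytes, and the part of the remaining Nfil3 reads that comes from them was not tested.

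The expected counts of a library summed to between 23805500 and 32290300, and 3 counts correspond to 0.0929 to 0.126 CPM before the TMM scaling. A gene passed the test at an adjusted p under 0.05, and 579 of 13242 genes tested (4.37%) were higher in E4bp4-LKO and 858 (6.48%) lower, 10.9% in either direction. When library totals replaced the TMM scaling, the split was 291 higher and 1660 lower, and with limma on log2(FPKM + 1) 257 higher and 1402 lower. These scalings moved the median log2 change of all genes from 0.01 to -0.15 and -0.11. WT mice 164 and 165 lay apart from the other WT mice on the first principal component (-49.3 and -30.1 against -11.1 and -10.4, with E4bp4-LKO from 19.2 to 31.2), and without both of them 182 genes were higher and 205 lower. The p-values set the difference between the groups against the spread among these 8 mice, which edgeR moderates with that of other genes.

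Of the 10 chosen genes, 7 were called higher in E4bp4-LKO and none lower, beside a background of 4.37% and 6.48%, and none was called lower in any fit run. The same 7 genes (Wnt2, Fzd4, Fzd8, Lgr5, Axin2, Rnf43 and Dkk4) did not overlap between the groups in CPM, which held for 8.8% of all genes tested in that direction and 9.68% in the other. Since the genes were chosen with this contrast in view, nothing is read from these counts. Their median log2 change was 0.71, with 0.01 over all genes tested. All 10 entered the test, Dkk4 only through its E4bp4-LKO libraries, since every WT library held fewer counts of it than the filter's minimum of 10. Of the other 9, 6 were called higher and the median log2 change was 0.59. With each mouse left out in turn 5 to 7 were called, and the genes lost were Fzd8 (without any 1 WT mouse, E4bp4-LKO 144 or E4bp4-LKO 145) and Lgr5 (without WT 164, 165 or 166 or E4bp4-LKO 144 or 179). Without WT mice 164 and 165 together, 2 of the 10 were called, Axin2 and Rnf43.

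**Figure D1:**
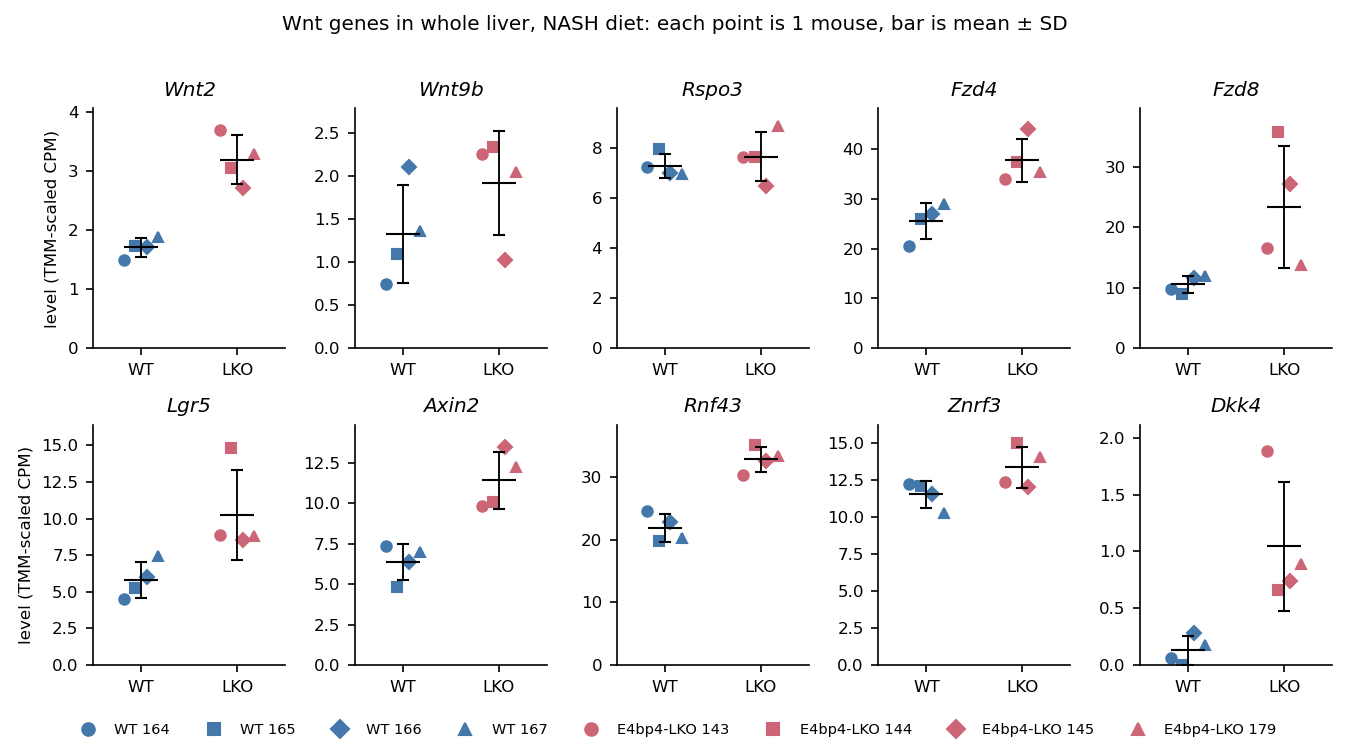
TMM-scaled CPM (y axis, from 0) of the 10 genes in each liver, with WT in blue and E4bp4-LKO in red, 1 symbol per mouse, and bars for the mean ± SD (n = 4 per group). Wnt2, Fzd4, Fzd8, Lgr5, Axin2, Rnf43 and Dkk4 do not overlap between the groups, while Wnt9b, Rspo3 and Znrf3 do.

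Among the ligands, Wnt2 alone was separated between the genotypes. Wnt2, an endothelial ligand of the liver that acts through beta-catenin, stood at 1.5, 1.74, 1.72 and 1.89 CPM in WT and at 3.70, 3.06, 2.72 and 3.30 CPM in E4bp4-LKO. Every E4bp4-LKO liver was above every WT liver, and the WT livers lay close together. The mean was 1.71 ± 0.159 CPM in WT and 3.20 ± 0.413 CPM in E4bp4-LKO (SD, n = 4 each), a fitted 1.87-fold difference (log2 0.90, SE 0.17). These levels rest on 49 to 57 counts per WT library and 74 to 100 per E4bp4-LKO library. Per transcript length, Wnt2 ran from 0.81 to 0.89 FPKM (fragments scaled for transcript length and library depth) in WT and from 1.21 to 1.68 FPKM in E4bp4-LKO.

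Wnt9b, the other Wnt ligand of central vein endothelium, stood at 0.751, 1.10, 2.10 and 1.36 CPM in WT and at 2.26, 2.34, 1.03 and 2.05 CPM in E4bp4-LKO. The groups overlapped, with WT 166 high and E4bp4-LKO 145 low for their groups. Its log2 change of 0.54 had an SE of 0.34. It ran from 0.34 to 0.85 when each mouse was left out in turn and was 0.15 without WT mice 164 and 165. Rspo3, which strengthens Wnt signals by removing Rnf43 and Znrf3 from the cell surface through Lgr receptors, stood at 7.25, 7.99, 7.01 and 6.96 CPM in WT and at 7.66, 7.64, 6.51 and 8.88 CPM in E4bp4-LKO. E4bp4-LKO livers were both the lowest and the highest of the 8. Its log2 change was 0.07 (SE 0.12), and it became -0.09 with library totals, -0.07 with limma on log2(FPKM + 1) and -0.01 without E4bp4-LKO 179.

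For all 3 chosen receptors the E4bp4-LKO values lay entirely above the WT values. Fzd4, a Frizzled that is also the receptor for norrin in blood vessels, stood at 20.5, 25.8, 26.9 and 29.0 CPM in WT and at 34.0, 37.3, 43.9 and 35.4 CPM in E4bp4-LKO. The lowest E4bp4-LKO value lay above the highest WT value, with E4bp4-LKO 145 the highest. The fitted difference was 1.47-fold (log2 0.56, SE 0.11). Fzd8, another Frizzled receptor, stood at 9.80, 9.06, 11.6 and 11.9 CPM in WT and at 16.7, 35.8, 27.1 and 13.8 CPM in E4bp4-LKO. The WT livers were alike and the E4bp4-LKO livers were not, with mice 144 and 145 far above mice 143 and 179. The fitted difference was 2.21-fold (log2 1.15, SE 0.28) and the coefficient of variation was 13.2% in WT and 43.1% in E4bp4-LKO. Without E4bp4-LKO 144 the log2 change of Fzd8 was 0.86 and without E4bp4-LKO 179 it was 1.33.

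Lgr5, the R-spondin receptor and Wnt target that marks pericentral hepatocytes, stood at 4.51, 5.28, 5.997 and 7.45 CPM in WT and at 8.85, 14.9, 8.53 and 8.79 CPM in E4bp4-LKO. Mouse 144 stood well above the other E4bp4-LKO livers, which lay within a narrow band just above the highest WT liver. The fitted difference was 1.77-fold (log2 0.83, SE 0.21), and it was 0.59 on the log2 scale (SE 0.17) without that mouse. Lgr4, its relative and the main R-spondin receptor of these livers by level, had a log2 change of 0.24 (SE 0.10, edgeR adjusted p = 0.122, and 0.0402 without E4bp4-LKO 143). Lgr6 was listed at 0.03 FPKM or less in every liver.

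Of the feedback genes, Axin2 and Rnf43 were separated between the genotypes and Znrf3 was not. Axin2, a scaffold of the destruction complex and a standard reporter of beta-catenin activity, stood at 7.37, 4.85, 6.35 and 6.96 CPM in WT and at 9.81, 10.1, 13.5 and 12.3 CPM in E4bp4-LKO. Mice 145 and 179 were the highest, and the nearest values of the groups were 7.37 and 9.81 CPM. The mean was 6.38 ± 1.10 CPM in WT and 11.4 ± 1.76 CPM in E4bp4-LKO (SD, n = 4 each), a fitted 1.79-fold difference (log2 0.84, SE 0.15). Leaving out each mouse in turn gave log2 changes from 0.73 to 0.92, and leaving out WT mice 164 and 165 gave 0.78. Rnf43, a membrane ubiquitin ligase that removes Frizzled receptors from the surface, stood at 24.6, 19.8, 22.9 and 20.2 CPM in WT and at 30.3, 35.1, 32.6 and 33.3 CPM in E4bp4-LKO. Both groups were narrow, with coefficients of variation of 10.3% and 6.13%. The fitted difference was 1.5-fold (log2 0.59, SE 0.09). Znrf3, its homologue with the same activity, stood at 12.2, 12.1, 11.5 and 10.3 CPM in WT and at 12.4, 14.98, 12.1 and 14.1 CPM in E4bp4-LKO. The groups overlapped, since E4bp4-LKO 145 was below WT 164. The log2 change of Znrf3 was 0.21 (SE 0.10), and with library totals it was 0.05.

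Dkk4, a secreted inhibitor that blocks Lrp5 and Lrp6 and is itself a Wnt target, had the lowest level of the 10 genes in WT. Its counts were 2, 0, 8 and 5 in WT and 51, 20, 20 and 20 in E4bp4-LKO, which correspond to 0.0578, 0, 0.281 and 0.175 CPM and to 1.89, 0.659, 0.735 and 0.893 CPM. The WT livers were near the level of 3 counts, and every E4bp4-LKO liver was above them. The fitted log2 change of 3.05 (SE 0.64) is a rough value, because the WT level rests on so few counts, and it ran from 2.59 to 3.75 with each mouse left out. It was 2.18 without WT mice 164 and 165, and 0.65 with limma on log2(FPKM + 1), a scale that compresses values this far below 1 FPKM.

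**Figure D2:**
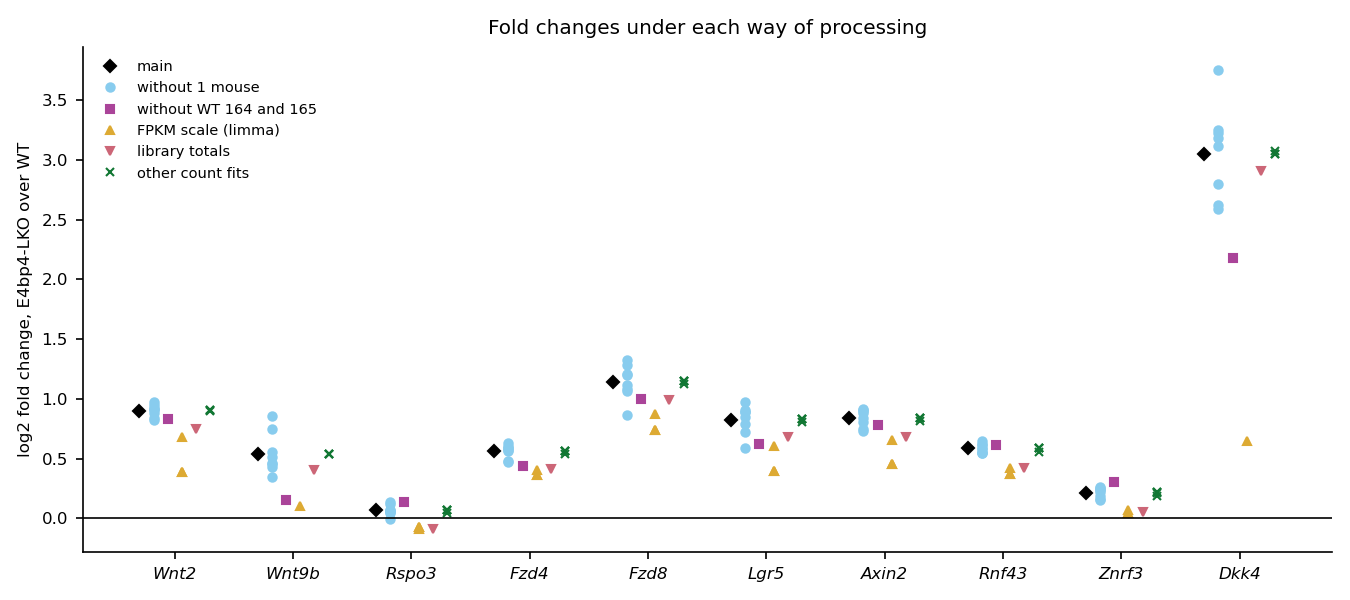
Log2 fold change of E4bp4-LKO over WT (y axis) of the 10 genes under each way of processing: the main edgeR fit, fits without 1 mouse, without WT mice 164 and 165, limma on log2 FPKM with a pseudocount, library totals, and the other count fits. Rspo3 lies on both sides of 0 (from -0.09 to 0.14), and the other 9 genes stay above 0 in the fits shown.

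Levels can be compared between genes only per transcript length, so the order of the ligands and receptors is given in FPKM. In WT, Wnt5b (3.31 ± 0.771 FPKM) and Rspo3 (3.20 ± 0.388) led the ligands and R-spondins without a gap between them, followed by Wnt4 (1.66 ± 0.511) and Wnt2 (0.850 ± 0.0408), each SD over 4 livers. Below them Wnt2, Wnt5a, Wnt9b, Rspo1, Wnt9a and Wnt2b each overlapped with the next. In E4bp4-LKO, Wnt2 (1.43 ± 0.198 FPKM) came next after Wnt5b and Rspo3 and overlapped with Wnt4 (1.14 ± 0.424), whose WT livers had all been above the WT livers of Wnt2. Summed over the 15 Wnt ligands listed, the level ran from 6.48 to 8.68 FPKM in WT and from 7.56 to 8.47 FPKM in E4bp4-LKO, which overlap.

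Among the Frizzled receptors, Fzd4 had the highest mean level in both groups, at 7.21 ± 0.578 FPKM in WT and 9.59 ± 1.08 FPKM in E4bp4-LKO. In WT, Fzd1 (3.75 ± 0.922), Fzd7 (3.49 ± 0.596) and Fzd8 (3.31 ± 0.263) followed without separation from each other. In E4bp4-LKO the order of the means was Fzd4, Fzd8 (6.55 ± 2.79), Fzd7 (5.41 ± 0.491) and Fzd1 (2.85 ± 0.370), and Fzd7 lay above Fzd1 in every liver of the group. The 10 Frizzled genes summed to 22.2, 19.4, 19.0 and 19.9 FPKM in WT and to 23.9, 30.8, 30.5 and 22.2 FPKM in E4bp4-LKO, so WT 164 and E4bp4-LKO 179 met at the same level. Fzd2, Fzd3, Fzd9 and Fzd10 were each at 0.24 FPKM or less.

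**Figure D3:**
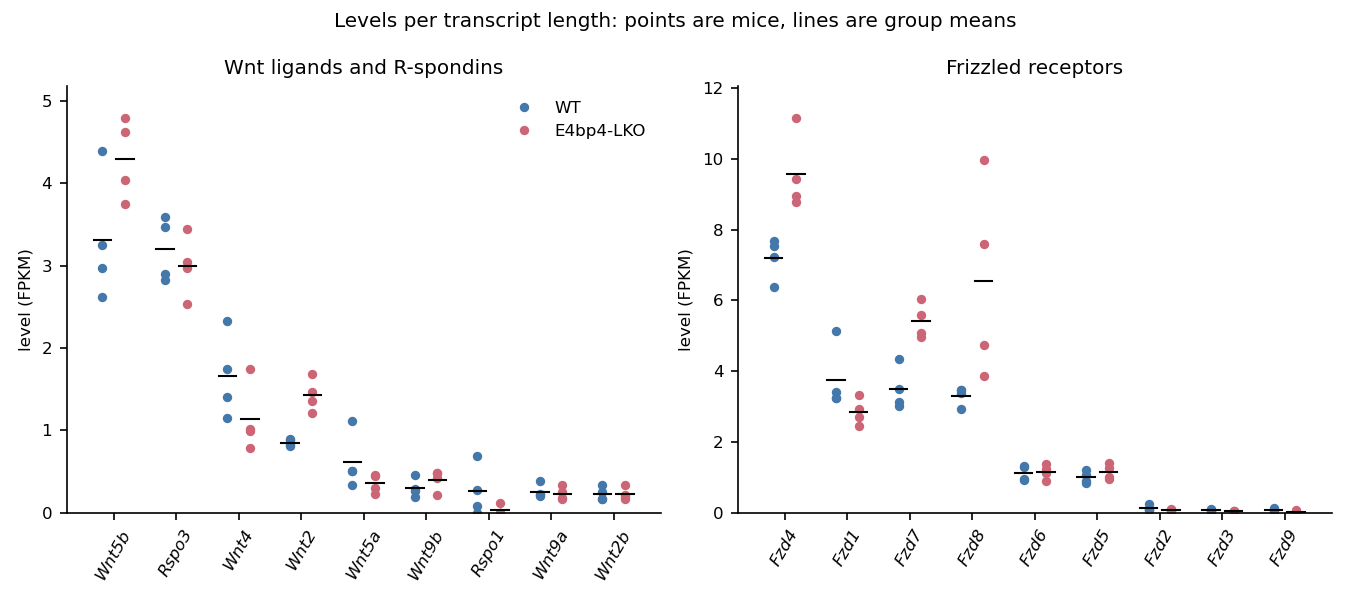
FPKM (y axis, from 0) of the 9 ligand and R-spondin genes and the 9 Frizzled genes with the highest WT means. Points are livers (WT blue, E4bp4-LKO red) and lines are group means of 4 livers; Wnt2 moves up beside Wnt4, and Fzd7 and Fzd8 move above Fzd1.

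Ratios within a liver compare 2 genes without the scaling between libraries. The FPKM of Wnt2 relative to Rspo3 was 0.236, 0.248, 0.279 and 0.311 in WT and 0.551, 0.458, 0.476 and 0.426 in E4bp4-LKO, and the 4 ratios of E4bp4-LKO lay above the 4 of WT. Wnt2 relative to Wnt9b was 3.13 ± 1.06 in WT and 3.90 ± 1.28 in E4bp4-LKO, which overlap. The ratio of Rnf43 to its homologue Znrf3 was 3.08 ± 0.283 in WT and 3.95 ± 0.275 in E4bp4-LKO without overlap. Axin2 relative to Axin1, the constitutive scaffold, was 0.274 ± 0.0488 in WT and 0.473 ± 0.0821 in E4bp4-LKO, also without overlap. Lgr5 relative to Lgr4 was 0.147 ± 0.0181 and 0.221 ± 0.0626, and here the nearest livers were close, at 0.169 and 0.174. Fzd8 relative to Fzd4 was 0.462 ± 0.0583 and 0.677 ± 0.273, which overlap (SD, n = 4 in each group).

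**Figure D4:**
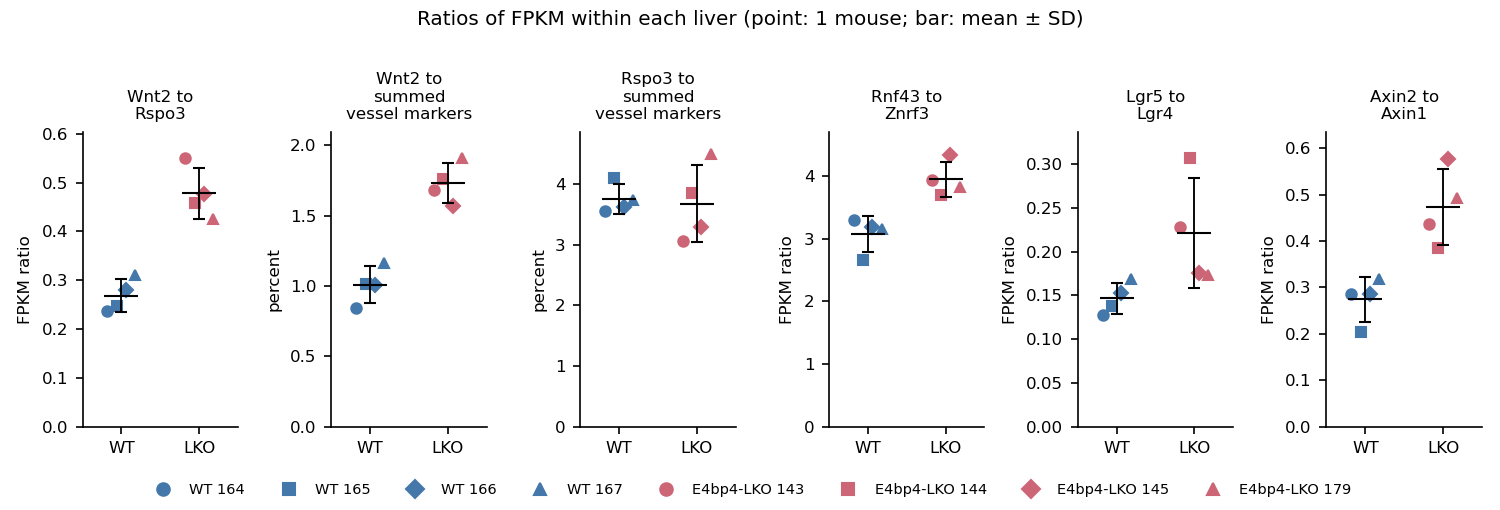
Ratios of FPKM within each liver (y axis, from 0; vessel markers as percent), with WT in blue, E4bp4-LKO in red and bars for the mean ± SD (n = 4 per group). Rspo3 relative to vessel markers overlaps between the groups, and the other 5 ratios drawn do not; Wnt2 to Wnt9b and Fzd8 to Fzd4, which overlap, are not drawn.

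The ligands of endothelial and stellate cells were then set beside the hepatocyte targets. For each liver, the log2 CPM of a gene minus its mean over the 8 livers was averaged over Wnt2, Wnt9b and Rspo3, and over Axin2, Rnf43, Znrf3 and Lgr5. The target average lay from -0.44 to -0.24 in WT and from 0.16 to 0.47 in E4bp4-LKO, with no overlap. The ligand average lay from -0.53 to -0.02 in WT and at 0.42, 0.34, -0.17 and 0.39 in E4bp4-LKO, so mouse 145 fell among the WT livers. That mouse had the highest Axin2 (13.5 CPM) and Fzd4 (43.9 CPM) of all 8 livers and the lowest Wnt2 (2.72 CPM), Wnt9b (1.03 CPM) and Rspo3 (6.51 CPM) of its group. In mouse 143 the order was the other way round: Wnt2 (3.70 CPM) and Dkk4 (1.89 CPM) were the highest of all livers, and Axin2 (9.81 CPM), Rnf43 (30.3 CPM) and Fzd4 (34.0 CPM) the lowest of the group. Mouse 144 had the highest Lgr5, Fzd8, Rnf43 and Znrf3. After each group's mean was subtracted, the log2 CPM of Axin2 and Wnt2 had a Pearson r of -0.49 over the 8 livers. For Wnt2 with the other targets r was -0.64 (Rnf43), -0.25 (Znrf3) and 0.25 (Lgr5), so the sign differed between targets. These are descriptions with no test.

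Among 10575 genes with a mean of at least 1 FPKM, the patterns most like that of Axin2 by this within-group Pearson r over 8 livers were those of Praf2 (0.952), D17H6S56E-5 (0.940), Podn (0.934) and Tmem267 (0.918). For Wnt2 they were Gstm4 (0.968), Eif3j1 (0.956), Adss (0.955) and Tvp23b (0.950). None of these 8 is in the Wnt lists used here, which hold few of the 10575 genes. These r values are the highest picked from 10575 genes over only 8 livers. Whether they exceed what unrelated genes would reach was not tested, and nothing is read from them.

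The remaining pathway genes passed the test at a share near that of all genes tested. A list of 85 further Wnt pathway genes was taken by role, of which 79 were listed in the files and 53 tested. Of these, 3 rose (5.66%, background 4.37%), 3 fell (5.66%, background 6.48%) and 47 did not pass, with a median log2 change of 0.07. With single mice left out, 1 to 5 of them rose (1 without WT 166, E4bp4-LKO 144 or E4bp4-LKO 145, and 5 without E4bp4-LKO 143), and 2 rose and 1 fell without both WT 164 and 165. Fzd7, another Frizzled receptor, rose 1.74-fold from 18.3, 14.1, 14.7 and 17.4 CPM to 25.8, 31.4, 28.9 and 25.8 CPM (log2 0.80, SE 0.10, edgeR adjusted p = 0.00217). All 4 E4bp4-LKO values of Fzd7 lay above the WT values and passed under every alternative fit run. Sp5, a transcription factor that is a direct beta-catenin target and feeds back on the pathway, rose 2.22-fold from 2.95, 1.07, 3.12 and 3.53 CPM to 4.18, 6.09, 6.87 and 6.43 CPM (log2 1.15, SE 0.31, edgeR adjusted p = 0.0402). The groups did not overlap, but the call of Sp5 was lost when WT mouse 164 or 166 or E4bp4-LKO mouse 144, 145 or 179 was left out, without both WT 164 and 165, and with limma on log2(FPKM + 1) without a filter (adjusted p from 0.00309 to 0.101 over the alternatives). Tnks, a tankyrase that marks Axin for degradation, rose 1.28-fold (log2 0.36, SE 0.08, edgeR adjusted p = 0.0237). Its call was lost with library totals, on the FPKM scale, and without WT mouse 165 or 166 or E4bp4-LKO mouse 144 or 145 (adjusted p from 0.0033 to 0.327 over the alternatives).

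The genes that fell were an extracellular inhibitor and 2 common target genes. Frzb, a secreted decoy that binds Wnt ligands, fell 2.37-fold from 13.9, 9.03, 6.66 and 6.82 CPM to 4.59, 3.10, 3.82 and 3.88 CPM (log2 -1.25, SE 0.24, edgeR adjusted p = 0.0114) and passed under every alternative fit run. WT 164 was the highest, and without WT mice 164 and 165 the log2 change of Frzb was -0.81. Ccnd1, the cell cycle gene cyclin D1, fell 1.76-fold (log2 -0.81, SE 0.18, edgeR adjusted p = 0.0236), and its call was lost without WT mice 164 and 165 (adjusted p from 0.000186 to 0.112 over the alternatives). Cd44, a hyaluronan receptor of many cell types, fell 1.65-fold (log2 -0.72, SE 0.15, edgeR adjusted p = 0.0179), and its call was lost without WT 165, E4bp4-LKO 144, E4bp4-LKO 145, or both WT 164 and 165 (adjusted p from 0.000368 to 0.107). Sp5, Ccnd1 and Cd44 all stand on lists of Wnt targets, and the first rose while the others fell. They were the genes that passed among 7 other feedback and target genes tested, and 4 did not pass. Nkd1 stood at a log2 change of 0.45 (SE 0.19, edgeR adjusted p = 0.157) and Myc at 0.42 (SE 0.62, edgeR adjusted p = 0.717). Tnfrsf19 stood at 0.06 (SE 0.09, edgeR adjusted p = 0.742) and Nkd2 at -0.16 (SE 0.42, edgeR adjusted p = 0.841).

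By role, none of the 5 further ligands tested passed in edgeR (1 higher at an unadjusted p under 0.05, and 0 called by DESeq2). Wnt5b, the ligand with the highest level, stood at a log2 change of 0.52 (SE 0.19, edgeR adjusted p = 0.0970, and 0.0138 without WT 167). Wls, which carries Wnt proteins to the cell surface, stood at -0.52 (SE 0.16, adjusted p = 0.0644 in the edgeR test). It passed in edgeR with library totals and without WT 167. Rspo1, the R-spondin next in level to Rspo3, was listed at 0.69 FPKM or less in WT and 0.11 FPKM or less in E4bp4-LKO and was not tested. Of 14 receptors and co-receptors, Fzd7 alone passed in edgeR, and 5, with Fzd7, were higher and 2 lower at an unadjusted p under 0.05. Tspan12, the Fzd4 co-receptor for norrin with the highest level of this role (55.4 FPKM on average), stood at 0.25 (SE 0.09, edgeR adjusted p = 0.108). Of 5 extracellular inhibitors Frzb passed in edgeR, and 2, with Frzb, were lower at an unadjusted p under 0.05. Notum, a Wnt-inactivating enzyme and pericentral target, stood at 0.35 (SE 0.17, edgeR adjusted p = 0.200, and 0.0466 without E4bp4-LKO 143). Of 13 genes of the cytoplasmic relay Tnks passed in edgeR, and 3, with Tnks, were higher at an unadjusted p under 0.05. Ctnnb1, which encodes beta-catenin itself, stood at -0.13 (SE 0.08, edgeR adjusted p = 0.338). None of 7 nuclear factors passed in edgeR (0 at an unadjusted p under 0.05, and 0 called by DESeq2), among them Bcl9l, the beta-catenin co-activator with the highest level of the role, at 0.14 (SE 0.10, edgeR adjusted p = 0.406). DESeq2 called 4 further pathway genes, Amer1 as higher and Ptk7, Dkk3 and Wls as lower.

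**Figure D5:**
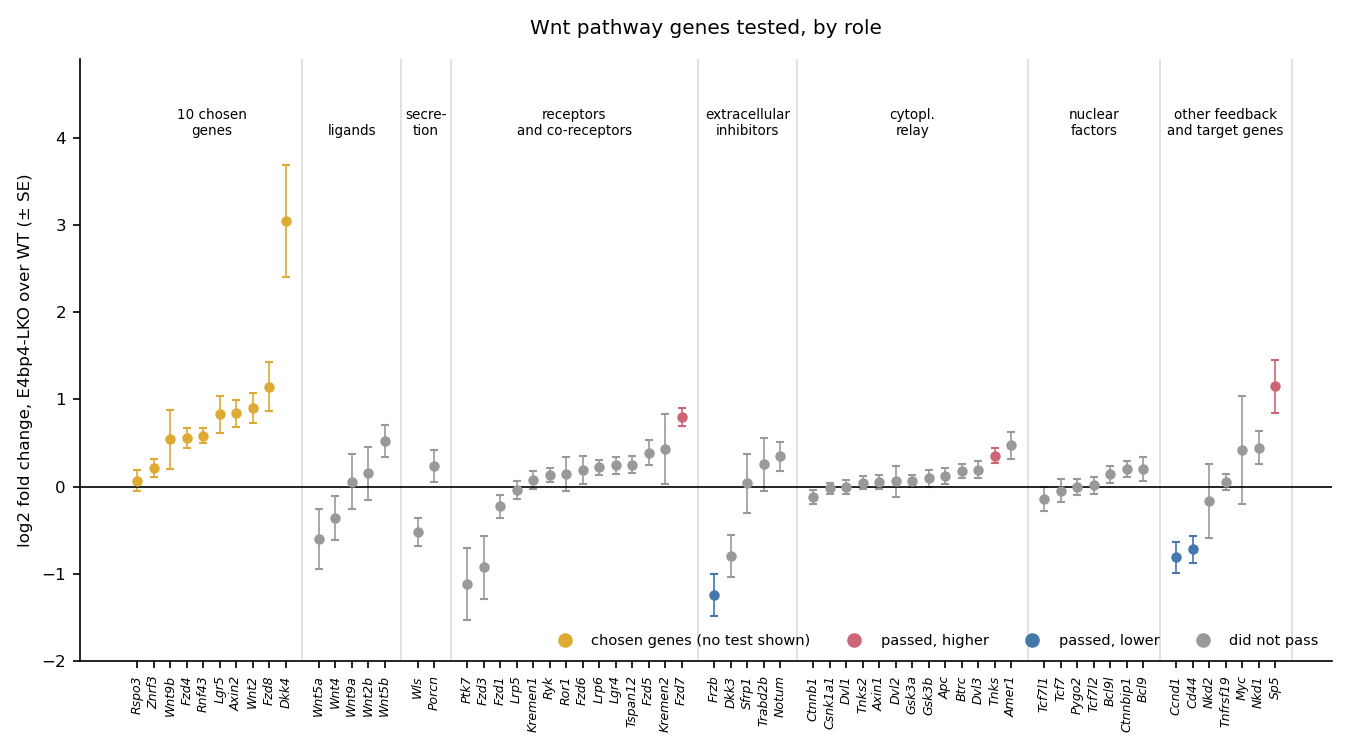
Log2 fold change of E4bp4-LKO over WT (y axis, ± SE) for the 10 chosen genes and the 53 further pathway genes tested, grouped by role; colours give the result of the edgeR test, which is not shown for the chosen genes. Fzd7, Sp5 and Tnks passed as higher, Frzb, Ccnd1 and Cd44 as lower, and 47 did not pass.

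The pericentral programme of hepatocytes is a known downstream readout of these ligands. Of 12 pericentral genes outside the chosen set, 3 rose (25%, background 4.37%), 1 fell (8.33%, background 6.48%) and 8 did not pass. Their median log2 change was 0.38 against 0.01 over all genes. The number that rose was 1 without E4bp4-LKO 144, 145 or 179, and 2 without WT mice 164 and 165. Tbx3, a transcription factor and beta-catenin target, rose 1.89-fold from 30.1, 21.9, 24.1 and 24.2 CPM to 44.6, 34.7, 53.0 and 58.1 CPM (log2 0.92, SE 0.15, edgeR adjusted p = 0.00742), and it passed under every alternative fit run. Cyp27a1, a bile acid synthesis enzyme, rose 1.46-fold (log2 0.55, SE 0.13, edgeR adjusted p = 0.0254, lost without WT 165, E4bp4-LKO 144, 145 or 179, or both WT 164 and 165, range over alternatives 0.000725 to 0.0798). Cyp1a2, a drug-metabolising enzyme, rose 1.44-fold with overlapping groups (log2 0.53, SE 0.15, edgeR adjusted p = 0.0463), and its call was lost in most alternatives (0.00692 to 0.123). Slc1a4, an amino acid transporter, fell 1.68-fold (log2 -0.75, SE 0.17, edgeR adjusted p = 0.0242, lost without WT 165, E4bp4-LKO 144, 145 or 179, or both WT 164 and 165, range over alternatives 0.00136 to 0.126).

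Glul and Cyp2e1, the classical pericentral enzymes for glutamine synthesis and drug oxidation, did not pass in edgeR, and DESeq2 called both as higher (adjusted p = 0.0376 and 0.0325), the lowest of any fit run. Glul stood at 934, 1026, 1562 and 1555 CPM in WT and at 1718, 1888, 1547 and 1884 CPM in E4bp4-LKO. WT mice 164 and 165 were low, and the other WT livers stood just above E4bp4-LKO 145. Its log2 change was 0.47 (SE 0.18, edgeR adjusted p = 0.107) and 0.18 without those WT mice. Cyp2e1 showed the same WT mice low, at 3136 and 4322 CPM against 7043 and 7282 CPM, with 7315 to 9123 CPM in E4bp4-LKO (log2 0.63, SE 0.24, edgeR adjusted p = 0.117, and 0.24 without those mice). Of the chosen genes, Lgr5 also had WT 164 and 165 lowest, at 4.51 and 5.28 CPM against 5.997 and 7.45 CPM. Wnt9b, Fzd4, Fzd8 and Dkk4 had those mice lowest of their group too. Wnt2, Rspo3, Axin2, Rnf43 and Znrf3 did not show that split. WT 164 had the highest Axin2 of its group and WT 165 the lowest.

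Periportal genes, the opposite zone of the lobule, gave 1 rise and 1 fall among 12 (8.33% each), near the background of 4.37% and 6.48%. There were 0 rises without E4bp4-LKO 144 or 179 and 3 without E4bp4-LKO 143. Cyp2f2, a periportal cytochrome, rose 1.60-fold (log2 0.68, SE 0.15, edgeR adjusted p = 0.0181), and its call was lost without E4bp4-LKO 144 or 179 (adjusted p up to 0.0531). Aldh1b1, a mitochondrial aldehyde dehydrogenase, fell 1.5-fold (log2 -0.59, SE 0.11, edgeR adjusted p = 0.0115), lost without WT mice 164 and 165 (adjusted p up to 0.0816). Hal and Cps1, enzymes of histidine breakdown and the urea cycle, stood at 0.84 (SE 0.23, edgeR adjusted p = 0.0503) and 0.45 (SE 0.13, edgeR adjusted p = 0.0510). Both were called higher by DESeq2 and in edgeR without E4bp4-LKO 143, and Hal also with the 5 CPM filter. DESeq2 called 3 of the periportal genes as higher and 2 as lower, and 5 of the pericentral genes as higher and 1 as lower. The periportal median was 0.07. The difference between the zones was not tested.

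The ligands come from cells other than hepatocytes, so markers of those cells are given beside them. Over all 53 markers of the lists used, 3 rose (5.66%) and 5 fell (9.43%), beside a background of 4.37% and 6.48%. None of 9 pan-endothelial markers passed in edgeR (1 higher at an unadjusted p under 0.05), and DESeq2 called 1, Kdr, the endothelial VEGF receptor, as higher. Kdr stood at a log2 change of 0.46 (SE 0.14, edgeR adjusted p = 0.0593) and passed in edgeR without E4bp4-LKO 143 (0.0200 to 0.301 over the alternatives). The summed level of the 9 markers ran from 75.6 to 97.5 FPKM in WT and from 76.9 to 99.7 FPKM in E4bp4-LKO. Eng had the highest level of the 9, at 34.7 FPKM on average in WT and 33.9 FPKM in E4bp4-LKO. None of 9 sinusoidal markers passed in edgeR either (2 higher at an unadjusted p under 0.05), DESeq2 called 1, Dnase1l3, as higher, and Gata4 passed in edgeR without E4bp4-LKO 145. Their log2 changes were 0.45 and 0.31, and the summed level of the list overlapped (107 to 131 FPKM in WT and 101 to 153 FPKM in E4bp4-LKO). Relative to the summed pan-endothelial markers, Wnt2 was 0.841%, 1.02%, 1.01% and 1.16% in WT and 1.69%, 1.76%, 1.57% and 1.91% in E4bp4-LKO. The ratio was thus higher in every E4bp4-LKO liver, while Rspo3 (3.76% ± 0.245 and 3.67% ± 0.635) and Wnt9b (0.362% ± 0.161 and 0.481% ± 0.150, SD, n = 4 each) overlapped. Of 7 markers of central vein and pericentral endothelium, 3 rose and none fell: Cdh13, a cadherin (log2 0.75, SE 0.17, edgeR adjusted p = 0.0242), Selp, the adhesion molecule P-selectin (0.47, SE 0.11, edgeR adjusted p = 0.0286), and Vwf, the clotting factor carrier (0.32, SE 0.09, edgeR adjusted p = 0.0414). The summed level of these 7 ran from 17.4 to 22.8 FPKM in WT and from 15.2 to 20.3 FPKM in E4bp4-LKO. These 3 calls were lost with library totals and without both WT 164 and 165. Selp and Vwf were also lost in all 3 limma fits and in 7 of the 8 fits without 1 mouse, and Cdh13 in limma without a filter and without WT 165 or E4bp4-LKO 144 or 179 (adjusted p up to 0.127 for Cdh13, 0.142 for Selp and 0.442 for Vwf). The other 4 markers did not pass, with log2 changes of 0.43 for Kit, -0.10 for Ptgs1, -0.22 for Lhx6 and -0.25 for Thbd. The part of the central vein endothelium in the level of Wnt2 was not tested.

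Markers of other liver cells moved as well. Of 10 stellate cell markers, 3 fell (background 6.48%): Rgs5 (log2 -0.75, SE 0.15, edgeR adjusted p = 0.0128), Lrat (-0.40, SE 0.10, edgeR adjusted p = 0.0362) and Colec11 (-0.40, SE 0.11, edgeR adjusted p = 0.0409). At an unadjusted p under 0.05 in edgeR, 7 of the 10 were lower and 0 higher, and DESeq2 called 5 as lower. The summed level of the 10 ran from 172 to 194 FPKM in WT and from 131 to 170 FPKM in E4bp4-LKO. Ecm1, which did not pass, had the highest level of the 10, at 91.3 FPKM on average in WT and 94.0 FPKM in E4bp4-LKO. Of 7 macrophage markers, C1qa (-0.56, SE 0.09, edgeR adjusted p = 0.00606) and Cd5l (-0.56, SE 0.11, edgeR adjusted p = 0.0123) fell (background 6.48%). The summed level of the 7 ran from 299 to 414 FPKM in WT and from 205 to 290 FPKM in E4bp4-LKO. C1qa and Cd5l make up most of that sum, at 127 and 148 FPKM on average in WT and 76.7 and 89.2 FPKM in E4bp4-LKO, so it adds little to their 2 calls. Others of this list pointed the other way without passing: Timd4, a marker of resident macrophages, at 1.16 (SE 0.38, edgeR adjusted p = 0.0807, called by DESeq2 and without WT 164), and Marco, a scavenger receptor, at 1.76 (SE 0.74, edgeR adjusted p = 0.173). Without WT mice 164 and 165, C1qa alone of the 5 stellate and macrophage markers that fell still passed. Lrat and Colec11 were also lost without most single mice (edgeR adjusted p up to 0.106 and 0.119). None of 5 cholangiocyte markers passed in edgeR, though all 5 were lower at an unadjusted p under 0.05, with a median log2 change of -1.13, and DESeq2 called 2 as lower, Krt7 (-1.41) and Epcam (-1.29). WT 164 had the highest value of each, with summed levels from 5.27 to 19.5 FPKM in WT and from 3.34 to 4.89 FPKM in E4bp4-LKO. None of 6 hepatocyte markers passed in edgeR (2 higher at an unadjusted p under 0.05, and 0 called by DESeq2), and they summed to 36062 to 41348 FPKM in WT and 38193 to 46141 FPKM in E4bp4-LKO. No marker of any list was at 0 in any liver, so the labelled tissue carried its hepatocyte markers throughout. The part of these cells in the levels of the 10 genes was not tested.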

How the data were processed

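RNA sequencing of whole liver from 4 WT and 4 E4bp4-LKO mice was analysed from the authors' deposited tables, 1 per mouse, which give an expected count and an FPKM value per gene. Per the submitters' processing notes HISAT2 aligned the reads. No source used here gives its version, the annotation, the build, the strand setting or how counts were estimated, so reads of a gene and of an overlapping antisense gene cannot be told apart. Per the deposited files, 25.9% to 27.3% of the expected counts were fractional. The FPKM values deposited by the authors are scaled for transcript length and depth and were used for levels, ratios and an alternative test.

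Entries were joined by gene identifier and named by symbol (29 without a symbol were added to a gene by RefSeq accession, and 1 stayed unnamed). Expected counts were rounded, filtered with filterByExpr (minimum count 10, minimum total 15), scaled by TMM and tested with edgeR 4.0.16 in R 4.3.3 (robust quasi-likelihood F test, two-sided, no covariate, Benjamini-Hochberg adjustment over 13242 genes, threshold 0.05), and SE is the log2 change divided by the root of F. The fitting script was tested on simulated counts. Library sums of 23805500 to 32290300 make 3 counts equal to 0.0929 to 0.126 CPM before the TMM scaling, and these limits cover counting error only. No libraries agreed within sampling noise.

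The 10 genes and all gene lists were chosen with earlier results of these data known. Named beside the 10 genes and Nfil3 were: Wnt pathway genes that passed (up to 4 per role by smallest p), the gene with the highest mean FPKM per role, up to 4 pericentral and 4 periportal genes by smallest p with Glul and Cyp2e1, up to 3 markers per cell type by smallest p, and for Axin2 and Wnt2 the 4 genes of at least 1 FPKM with the highest within-group Pearson r. Kit, Ptgs1, Lhx6, Thbd, Marco, Amer1, Ptk7, Dkk3, Lgr4, Lgr6, Nkd1, Nkd2, Myc, Tnfrsf19 and genes named by level alone were added after their values were seen. Alternatives were DESeq2 size factors in edgeR, library totals, DESeq2 1.42.0, no filter, a filter of 5 CPM in 4 libraries, limma 3.58.1 on log2(FPKM + 1) for genes at 1 FPKM in 4 libraries, on log2(FPKM + 0.1) and without a filter, each mouse left out, and both WT 164 and 165 left out.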

Additional observations from a re-analysis of the deposited data

Results flagged for a closer look

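The values of the named genes were searched, in 108 groups of 4 livers, for a liver whose distance to its nearest neighbour takes up most of the range of its group (Dixon's criterion). It marked 7 values, and chance marks about 1 group in 20. Of the 10 Wnt genes it marked 1, Lgr5 in E4bp4-LKO 144, at 14.85 CPM with the other E4bp4-LKO livers from 8.53 to 8.85 CPM. From WT 164 came 3 values, Tspan12 at 105.0 CPM (others 133 to 137), Ccnd1 at 190.4 CPM (others 118 to 130) and Cyp2f2 at 715.2 CPM (others 1100 to 1145). From WT 165 came Erg at 9.367 CPM (others 6.91 to 7.25) and Rgs5 at 24.84 CPM (others 21.6 to 22.1). Kdr, the endothelial VEGF receptor, stood at 59.96 CPM in E4bp4-LKO 143 (others 37.7 to 39.6), the liver with the highest Wnt2.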

How the results depend on the processing

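No paired analysis was possible because the mouse numbers are not shared between the groups. Library totals gave 291 higher and 1660 lower genes, 5 lower Wnt pathway genes outside the 10, 2 lower periportal genes and 0 higher markers. They gave log2 changes of -0.0924 (Rspo3), 0.42 (Rnf43) and 0.0505 (Znrf3). DESeq2 gave 972 higher genes, 6 lower pathway genes, 5 higher pericentral, 3 higher and 2 lower periportal genes, and 6 higher and 9 lower markers. The 5 CPM filter gave 2 higher periportal genes and 1 higher marker, and Wnt2, Wnt9b and Dkk4 did not enter that fit. Limma on log2(FPKM + 1) gave 257 higher and 1402 lower genes, 2 lower periportal genes and 1 higher marker. Of the chosen genes 8 entered this fit, without Wnt9b and Dkk4, and 4 were called (Wnt2, Fzd4, Axin2 and Rnf43). The changes were 0.39 (Wnt2), 0.36 (Fzd4), 0.40 (Lgr5), 0.45 (Axin2), 0.37 (Rnf43) and 0.0446 (Znrf3). Without the filter all 10 entered the limma fit, and 4 were called (Wnt2, Fzd4, Axin2 and Dkk4). The 6 values above were as large, with 2 lower periportal genes, 215 higher genes, 1 higher pathway gene, 0 higher markers and 0.65 for Dkk4. With the pseudocount 0.1 and the filter, limma gave 260 higher and 1449 lower genes, 2 lower periportal genes, 1 higher marker, and 0.68 (Wnt2), -0.0884 (Rspo3), 0.43 (Rnf43) and 0.0676 (Znrf3). Wnt9b and Dkk4 did not enter that fit either. Bcl9l and Eng turned to -0.0184 and -0.0326 with library totals, to -0.0222 and -0.0264 with limma on log2(FPKM + 1) with or without the filter, and to -0.0242 and -0.027 with the pseudocount 0.1, and in these fits the median of all genes also fell. Without WT 164 and 165, 182 genes were higher and 205 lower, with 1 lower pathway gene, 0 lower pericentral and 0 lower periportal genes, 0 higher and 1 lower marker, 2 of the 10 called and 2.18 for Dkk4; that fit has fewer livers. Without 1 mouse, 235 to 608 genes were higher and 271 to 933 lower, both fewest without E4bp4-LKO 144, with 1 to 5 higher pathway genes, 1 to 3 higher and 0 to 1 lower pericentral, 0 to 3 higher and 1 to 2 lower periportal genes, and 0 to 2 higher and 3 to 5 lower markers. Of the 10, 5 to 7 were called, and Fzd8 and Lgr5 were the genes lost. The cause of these shifts was not tested. Dkk4 and Wnt9b are limited by depth, with 0 to 71 counts per library.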
